A study of Mus musculus with 24 samples.

Results

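The cadherins and protocadherins were described across 3 brain regions of wild-type (WT) mice and of mice lacking glutamine synthetase in the liver (KO). The members were all genes on the array whose symbol begins with Cdh and a digit or with Pcdh, which gave 54 of the 19505 gene symbols measured. Each of the 54 symbols had 1 row, so no choice between rows was needed. They comprised 5 type I cadherins, 13 type II cadherins, 5 atypical cadherins, 4 delta-1, 5 delta-2 and 2 other non-clustered protocadherins, and 20 genes of the beta protocadherin cluster. The alpha and gamma clusters and Pcdh15 were not analysed here. Total RNA of cerebral cortex, hippocampus and cerebellum was hybridised from 4 WT and 4 KO animals, 1 array per animal and region, which made 24 arrays in 6 groups of 4. The labels name no treatment, and they do not state the strain, age or sex of the mice or what drives the liver deletion. The series asks which brain transcripts change with raised ammonia, which liver glutamine synthetase normally helps to clear from the blood. Because the deletion is in the liver, it could not be checked in these brain arrays.

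Cadherins are calcium-dependent adhesion proteins of the cell surface. Classical type I and type II cadherins bind mainly the same or a closely related cadherin on the neighbouring cell and are linked through catenins to the actin cytoskeleton, and neurons of different brain divisions are known to carry different combinations of them. The non-clustered delta protocadherins are smaller families with patterned expression in the brain, and they act in adhesion, cell movement and synapse number. The clustered protocadherins lie in tandem on the chromosome, and a neuron chooses a few of them, which gives it a surface identity used in self-recognition.

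All values below are deposited log2 values, and a difference of 1 between 2 groups is a 2-fold difference on that scale. A level cannot be set against the level of another gene, since each gene has its own probes, so only differences within a gene were compared. Which values lay above background could not be judged from the deposited values, and a difference from a group at background would be a lower bound. Any 2 arrays of the same group correlated at 0.98 to 0.996. The dissections carried the markers of their regions: 9 of 9 neocortical, 9 of 9 hippocampal and 10 of 10 cerebellar granule and Purkinje cell genes had their highest WT mean in the region they mark. The marker lists were chosen with earlier results of these data known, so these counts are not an independent check. Several arrays stood apart by markers of other tissue. KO 1 and KO 4 of the cortex had mean values of 11.17 and 10.6 over 15 olfactory bulb genes, against 7.99 to 8.4 in the other 6 cortex arrays. KO 3 of the cerebellum had 9.67 over 15 brainstem and spinal cord genes, against 7.63 to 8.07 in the other 7 cerebellum arrays, and 13.71 over the 10 granule and Purkinje cell genes, against 14.94 to 15.54. Results of KO mice that moved with these 3 arrays are given with and without them. In the cortex WT 4 had 9.95 over 9 thalamus and midbrain genes, against 8.73 to 9.06 in the other 7 arrays. In the hippocampus the choroid plexus genes ranged from 8.61 to 12.15, highest in KO 1, and the striatal genes from 9.65 to 11.84, with WT 3, WT 4 and KO 3 at 11.18 or above. Thalamus and midbrain genes of the hippocampus ranged from 8.83 to 10.73, highest in WT 3. Choroid plexus genes of the cerebellum ranged from 8.5 to 11.46, highest in WT 2, with KO 3 at 11.05. Striatal genes of the cortex ranged from 10.16 to 11.91, lowest in WT 1. Each array was also left out in turn. The part of these markers in the member values was not tested. In tissue pieces such as these, fewer cells of a type and less RNA per cell cannot be told apart.

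In WT mice the 3 regions differed widely in their cadherins outside the beta cluster. Between cerebellum and cortex 17 of the 54 members (31.5%) passed an adjusted p of 0.05 and 2-fold, 4 higher and 13 lower in cerebellum. Of all 19572 genes tested 9.98% passed, 4.51% higher and 5.47% lower. Between cerebellum and hippocampus 18 members (33.3%) passed, 4 higher and 14 lower, against 9.83% of all genes (3.98% higher and 5.85% lower). Between hippocampus and cortex 5 members (9.26%) passed, 3 higher and 2 lower in hippocampus, against 1.36% (0.746% higher and 0.618% lower). A 1.5-fold minimum gave 10 members in this last pair (3.82% of all genes), and no fold minimum gave 10 (7.09%). Cdh7, Cdh15 and Cdh18 were higher in cerebellum than in both other regions (3 members, 5.56%, against 3.3% of all genes). Lower than in both were 13 members, Cdh6, Cdh9, Cdh10, Cdh11, Cdh12, Cdh13, Pcdh1, Pcdh7, Pcdh8, Pcdh10, Pcdh11x, Pcdh17 and Pcdh19 (24.1%, against 4.36% of all genes). At least 1 pair of regions separated 19 members (35.2%, against 12.3%), and none of these 19 belonged to the beta cluster. The test was limma's moderated statistic with the animal as a random block and Benjamini-Hochberg adjustment over all genes, and it gave each adjusted p between regions below.

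**Figure D1:**
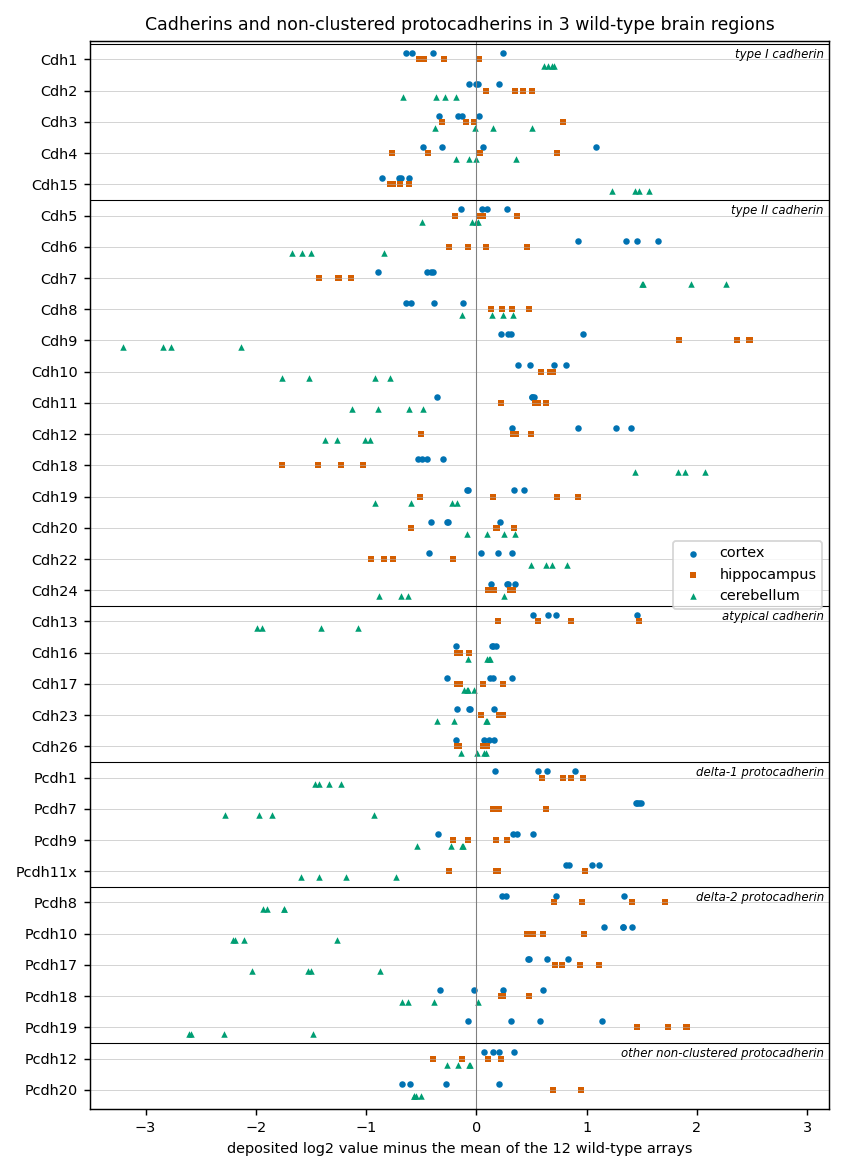
Each row is 1 of the 34 members outside the beta cluster, grouped by class, and each point is 1 of the 12 WT arrays (circles cortex, squares hippocampus, triangles cerebellum), plotted as its deposited log2 value minus the mean of the gene's 12 WT arrays. The cerebellum lies to the right for Cdh7, Cdh15 and Cdh18 and to the left for the 13 members lower there, among them Cdh9, with 5.02 between cerebellum and hippocampus.

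Among the type I cadherins, Cdh15 was the member that marked the cerebellum. Cdh15, also called M-cadherin and known from muscle cells, read 8.88, 8.64, 8.85 and 8.97 in WT cerebellum, 6.7, 6.79, 6.72 and 6.55 in cortex and 6.62, 6.65, 6.79 and 6.71 in hippocampus. The cerebellar arrays were all above the 8 others, by 2.14 over each region (SE 0.16, n = 4 per group, adjusted p = 5.22e-11 against cortex and 4.78e-11 against hippocampus). Cdh1, the epithelial E-cadherin, read 9.85, 9.76, 9.81 and 9.84 in cerebellum and 8.52 to 9.4 in cortex, a difference of 1.01 (SE 0.15, adjusted p = 7.21e-06) that lies at the 2-fold limit. It fell under 2-fold when any 1 of 5 arrays was left out, to 0.91 in the lowest case. Against hippocampus Cdh1 was higher by 0.98, just under the limit. Cdh2, the N-cadherin of neural tissue and of synapses, was lower in cerebellum than in hippocampus by 0.72 (SE 0.12, adjusted p = 1.73e-05), under 2-fold, with 12.95 to 13.43 in cerebellum and 13.71 to 14.12 in hippocampus. Cdh4, the R-cadherin, showed no difference past the test between any 2 regions, with 8.67 to 10.24 in the 4 cortex arrays alone.

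The type II cadherins held members of both directions. Cdh7 read 13.26, 12.51, 12.94 and 12.5 in WT cerebellum, 10.6, 10.55, 10.11 and 10.58 in cortex and 9.75, 9.57, 9.75 and 9.87 in hippocampus. The 3 regions did not overlap, and cerebellum was higher than hippocampus by 3.07 (8.41-fold, SE 0.2, adjusted p = 5.45e-12) and than cortex by 2.34 (adjusted p = 8.07e-10). Cdh18 read 14.17, 13.53, 13.92 and 13.98 in cerebellum, 11.57, 11.64, 11.59 and 11.79 in cortex and 10.66, 10.87, 10.33 and 11.06 in hippocampus. It too had cerebellum on top, 3.17 above hippocampus (9-fold, SE 0.24, adjusted p = 6.52e-11) and 2.25 above cortex (adjusted p = 2.88e-08), with no overlap between any 2 regions. Cdh22 was higher in cerebellum than in hippocampus by 1.35 (SE 0.17, adjusted p = 3.2e-07), while its difference from cortex, 0.63, was under 2-fold.

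Cdh9, a type II cadherin with a known part in synapses of hippocampal mossy fibres, had the widest difference between hippocampus and cerebellum of the 54 members in WT mice. It read 11.64, 11.01, 11.53 and 11.65 in hippocampus, 9.46, 9.39, 10.14 and 9.48 in cortex and 5.97, 6.4, 7.04 and 6.32 in cerebellum. The order hippocampus, cortex, cerebellum held with no overlap between any 2 regions. Cerebellum was lower than hippocampus by 5.02 (SE 0.26, n = 4 per group, adjusted p = 6.99e-14) and than cortex by 3.18 (adjusted p = 2.97e-10), and hippocampus was above cortex by 1.84 (3.58-fold, adjusted p = 5.31e-05). Cdh6, known from restricted divisions of the embryonic forebrain, had its highest values in cortex. It read 12.25, 12.06, 11.52 and 11.96 there, 10.36, 10.69, 11.06 and 10.52 in hippocampus and 9.02, 8.93, 9.76 and 9.1 in cerebellum. Cortex was above hippocampus by 1.29 (SE 0.26, adjusted p = 0.00245) and above cerebellum by 2.75 (adjusted p = 4.51e-09).

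Of the remaining type II cadherins, Cdh10, Cdh11 and Cdh12 were also lower in cerebellum than in both forebrain regions. Cdh10 was lower than in hippocampus by 1.9 and than in cortex by 1.84 (SE 0.23, adjusted p = 2.3e-07 and 3.64e-07). Cdh12 was lower by 1.32 and 2.13, and its cortex and hippocampus differed by 0.81 (adjusted p = 0.0155), under 2-fold. Cdh11, also found in mesenchymal and meningeal cells, was lower by 1.26 and 1.07. Cdh8 was lower in cortex than in hippocampus, with 13.07 to 13.58 in cortex and 13.84 to 14.18 in hippocampus. This difference of 0.73 passed the p (adjusted p = 0.0152) but not 2-fold. Cdh20 and Cdh5, the cadherin of vascular endothelium, passed the test in no pair of regions, and their differences reached 0.33 and 0.2.

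Among the atypical cadherins only Cdh13 was called in any WT pair of regions. Cdh13 (T-cadherin), which lacks a cytoplasmic tail and is held by a lipid anchor, read 8.11, 8.64, 8.98 and 8.06 in cerebellum, 10.7, 10.56, 11.51 and 10.78 in cortex and 10.91, 10.24, 10.61 and 11.53 in hippocampus. Its cerebellar arrays were all below the 8 others, by 2.44 against cortex (5.43-fold, SE 0.28, adjusted p = 9.53e-08) and by 2.38 against hippocampus (adjusted p = 1.55e-07), while cortex and hippocampus differed by 0.06. Cdh23, a component of the tip links of hair cells, read 7.3 to 7.9 over all 12 WT arrays and did not pass between any 2 regions.

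The delta protocadherins had their low values in cerebellum. In WT mice all 9 delta protocadherins had a lower mean in cerebellum than in cortex and hippocampus. Of the 9, 7 were called against both regions. Median differences from cortex were -2.06 for the delta-1 and -2.47 for the delta-2 members, where the median over all genes was -0.02. Quantile normalization over the 24 arrays left the counts of calls in both classes as they were. Pcdh19, whose human form is altered in an epilepsy of girls, had its highest values in hippocampus. It read 11.65, 11.2, 11.48 and 11.64 in hippocampus, 9.66, 10.05, 10.88 and 10.32 in cortex and 7.16, 7.46, 8.26 and 7.13 in cerebellum. No 2 regions overlapped. Cerebellum was lower than hippocampus by 3.99 (15.9-fold, SE 0.32, adjusted p = 1.41e-10), and hippocampus was above cortex by 1.27 (adjusted p = 0.0134), a call lost without WT 1 of the cortex (difference 1.08, adjusted p = 0.0649).

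Pcdh8 (arcadlin), known to be induced by neuronal activity and to take N-cadherin from the synapse surface, was low in cerebellum with little spread. It read 7.49, 7.3, 7.49 and 7.33 there, 9.47, 9.95, 10.57 and 9.5 in cortex and 10.94, 9.93, 10.19 and 10.64 in hippocampus. Cerebellum was lower by 3.03 than hippocampus (SE 0.23, adjusted p = 8.06e-11) and by 2.47 than cortex (adjusted p = 3.18e-09), and the 2 forebrain regions overlapped. Pcdh10, which recruits actin regulators, read 12.24, 12.41, 12.49 and 12.41 in cortex, 11.6, 11.54, 11.68 and 12.05 in hippocampus and 8.9, 8.87, 9.82 and 8.97 in cerebellum. Its cerebellum was lower than cortex by 3.25 (9.51-fold, SE 0.26, adjusted p = 2.54e-10), the widest cerebellum-to-cortex difference among the 54 members. Pcdh17, a protein of synaptic contacts, was lower in cerebellum by 2.09 against cortex and 2.37 against hippocampus. Pcdh18 alone of the delta-2 members was not called, with 0.54 and 0.71.

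Pcdh7, a delta-1 member, read 14.49, 14.44, 14.47 and 14.45 in cortex. It read 13.16, 13.19, 13.14 and 13.62 in hippocampus and 10.72, 11.14, 12.06 and 11.02 in cerebellum, so that the 3 regions fell into separate ranges. Cortex was above hippocampus by 1.18 (SE 0.3, adjusted p = 0.0165) and above cerebellum by 3.22 (9.35-fold, adjusted p = 3.3e-09). The hippocampal call ended without WT 1 (adjusted p = 0.0504) or without WT 3 of the hippocampus (0.0527), with differences of -1.14 and -1.13. Pcdh1 was lower in cerebellum by 1.93 against cortex and 2.16 against hippocampus (SE 0.14), and Pcdh11x, an X-linked gene, by 2.18 and 1.51. Pcdh9 was the exception, with 10.97 to 11.38 in cerebellum against 11.15 to 12.02 in cortex, a difference of 0.47 under 2-fold. Pcdh20 was raised in hippocampus alone: it read 9.18, 9.18, 9.18 and 8.92 there and 7.55 to 8.43 in the 8 other arrays, 1.23 above cortex (SE 0.18, adjusted p = 5.7e-05) and 1.43 above cerebellum (adjusted p = 2.98e-07).

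Genes next to each other on a chromosome did not always share a pattern. Per the RefSeq annotation of GRCm38.p6, Cdh6, Cdh9, Cdh10 and Cdh12 follow each other on chromosome 15 with 0 protein-coding genes between them, and Cdh18 comes next with 1 gene between. The first 4 were lower in cerebellum than in both forebrain regions and Cdh18 was higher than in both. On chromosome 1, Cdh7 (higher in cerebellum) is directly followed by Cdh19, which was lower in cerebellum than in hippocampus by 0.8, under 2-fold. On chromosome 14, Pcdh8, Pcdh17, Pcdh20 and Pcdh9 follow each other with at most 2 coding genes between neighbours. The first 3 were called lower in cerebellum than in hippocampus. Distances in bases between these genes were not computed.

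The 250 bases before the transcription start are shown for the 3 members higher in cerebellum than in both other regions and for the 3 with the widest fall from hippocampus to cerebellum, Cdh9, Pcdh19 and Pcdh8, so that the 2 patterns can be set side by side. They come from RefSeq (GRCm38.p6), are written 5' to 3' on the gene's strand, and for Cdh7 the window is the first of 3 listed starts. Capitals mark CCAAT (or ATTGG on the other strand), GGGCGG (or CCGCCC) and TATAAA (or TTTATA), searched on both strands, and no 2 matches overlap in the windows shown. The table of windows held 21 of the 54 members.
Cdh18 (chr15:23036213-23036462, plus strand): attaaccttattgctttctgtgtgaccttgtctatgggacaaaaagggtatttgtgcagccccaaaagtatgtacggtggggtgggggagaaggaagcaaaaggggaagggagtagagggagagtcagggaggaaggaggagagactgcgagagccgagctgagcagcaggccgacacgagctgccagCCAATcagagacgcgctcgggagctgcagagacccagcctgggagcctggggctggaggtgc
Cdh7 (chr1:109982650-109982899, plus strand): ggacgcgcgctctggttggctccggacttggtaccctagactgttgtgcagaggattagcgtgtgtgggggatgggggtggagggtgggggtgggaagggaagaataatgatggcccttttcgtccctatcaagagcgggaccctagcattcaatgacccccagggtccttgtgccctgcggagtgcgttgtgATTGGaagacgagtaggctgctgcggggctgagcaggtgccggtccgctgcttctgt
Cdh15 (chr8:122848124-122848373, plus strand): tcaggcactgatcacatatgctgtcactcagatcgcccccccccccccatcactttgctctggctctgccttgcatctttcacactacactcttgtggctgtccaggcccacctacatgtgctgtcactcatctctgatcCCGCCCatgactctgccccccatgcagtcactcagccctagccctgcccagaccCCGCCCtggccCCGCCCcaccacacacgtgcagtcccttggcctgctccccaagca
Cdh9 (chr15:16728665-16728914, plus strand): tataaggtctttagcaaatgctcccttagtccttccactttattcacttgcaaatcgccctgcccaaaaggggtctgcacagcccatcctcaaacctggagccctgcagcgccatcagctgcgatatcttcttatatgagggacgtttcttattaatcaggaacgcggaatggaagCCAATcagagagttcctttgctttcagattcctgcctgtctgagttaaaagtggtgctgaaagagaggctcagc
Pcdh19 (chrX:133688994-133689243, minus strand): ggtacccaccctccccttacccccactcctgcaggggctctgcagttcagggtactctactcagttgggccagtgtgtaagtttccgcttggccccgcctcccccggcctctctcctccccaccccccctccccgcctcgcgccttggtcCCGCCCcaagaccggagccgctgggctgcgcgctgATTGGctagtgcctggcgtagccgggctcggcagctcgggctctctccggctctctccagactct
Pcdh8 (chr14:79771313-79771562, minus strand): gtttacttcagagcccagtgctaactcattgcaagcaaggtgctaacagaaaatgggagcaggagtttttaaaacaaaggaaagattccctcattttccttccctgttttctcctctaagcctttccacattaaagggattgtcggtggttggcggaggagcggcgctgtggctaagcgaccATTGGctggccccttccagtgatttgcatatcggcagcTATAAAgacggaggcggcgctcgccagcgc
CCAAT stood in 5 of the 6 windows, in both patterns, where 33.8% of all 32851 windows in the table held it on either strand, and in 14 of the 24 windows of members. GGGCGG stood in 9 of those 24 windows against 32.7% of all, among the 6 shown in Cdh15, with 3 copies, and Pcdh19. TATAAA stood in 1 of the 24, that of Pcdh8, against 12.4% of all. The windows held 8 (Cdh18), 13 (Cdh7), 5 (Cdh15), 6 (Cdh9), 16 (Pcdh19) and 11 (Pcdh8) CG pairs, where the median of all windows was 6. A match is a run of letters and not evidence of binding.

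The beta protocadherin cluster differed little between regions. In WT mice 0 of its 20 genes passed the test with 2-fold in any pair of regions, and its differences lay between -0.45 and 0.68. Without the fold minimum, 26 members passed between cerebellum and cortex (35.8% of all genes), 3 of them in the cluster. Pcdhb14 read 9.16, 9.36, 9.72 and 9.6 in cerebellum and 8.85, 8.87, 8.29 and 9.11 in cortex, higher by 0.68 (SE 0.18, adjusted p = 0.00363) with no overlap. Pcdhb18 was higher by 0.4 (adjusted p = 0.0114) and Pcdhb5 lower by 0.45 (adjusted p = 0.0289). The genes of the cluster are close copies of each other, and how far their probes tell them apart was not tested, so single values are uncertain.

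**Figure D2:**
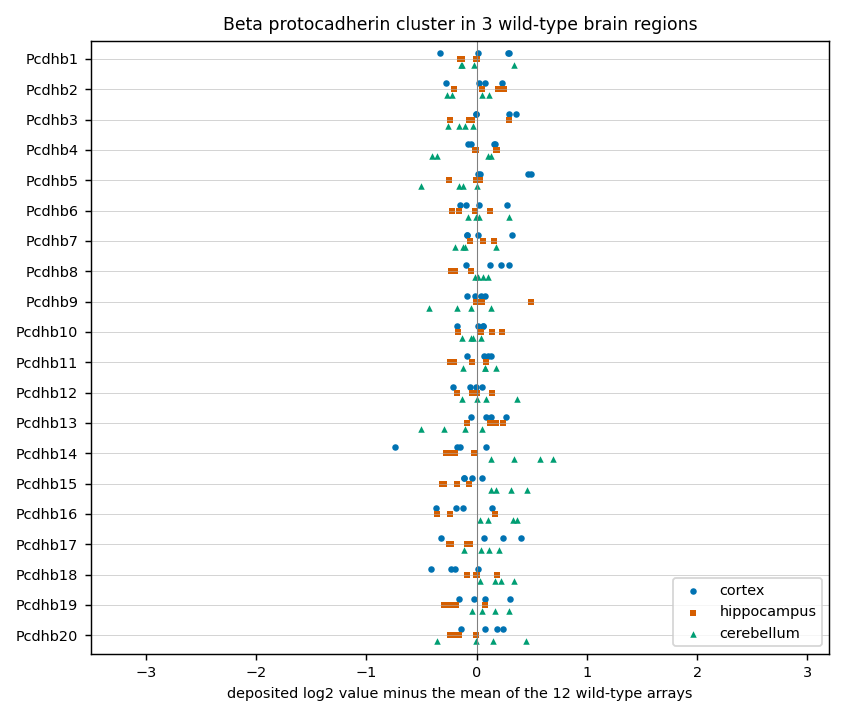
Each row is 1 of the 20 genes of the beta cluster in numerical order, drawn on the same scale as the plot of the other members, with 1 point per WT array (circles cortex, squares hippocampus, triangles cerebellum) as log2 value minus the gene's mean over the 12 WT arrays. The regions overlap in most rows, and Pcdhb14 shows the cerebellum to the right by 0.68 against cortex.

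Genes that act with the cadherins were counted from 5 lists. Of 14 catenins and adhesion partners measured, 2 were called between WT cerebellum and cortex, where 9.98% of all genes were, with Jup (plakoglobin, a catenin of junctions) higher by 2.11 and a difference of -1.05 for Ctnnd2 (a neuronal catenin of synapses). Of 13 protocadherin effectors, 6 were called, 2 higher and 4 lower in cerebellum. They included Ptk2b, a tyrosine kinase bound by clustered protocadherins, at -4.81 (SE 0.2, adjusted p = 6.27e-16), and Wasf1, an actin regulator, at -1.58. All 10 measured regulators of clustered protocadherin choice had a higher mean in cerebellum than in cortex (median 0.63, against -0.02 over all genes), and 2, the cohesin subunits Smc1a and Smc3, were called, with 1.17 and 1.12. Of 9 sheddases and secretases 0 were called with 2-fold. At an adjusted p of 0.05 alone (limma) 4 of them passed, where 35.8% of all genes did. Of 22 further members of the cadherin superfamily 7 were called, 3 higher and 4 lower, with Fat2, a giant cadherin of cerebellar granule cells, higher by 6.14 and Fat1 by 2.94. None of these list genes was called for genotype in any region.

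The KO mice repeated the regional pattern in other animals. All 5 members called between hippocampus and cortex in WT mice were called in the same direction in KO mice, as were 15 of 17 between cerebellum and cortex and 14 of 18 between cerebellum and hippocampus. Among all genes called in WT mice the shares were 80.9%, 72.6% and 74.9%. In KO mice 8 (1.85% of all genes), 15 (8.21%) and 14 members (8.12%) were called in the 3 pairs, so that 62.5%, 100% and 100% of the KO calls were WT calls. Over all genes these shares were 59.5%, 88.2% and 90.7%. Without KO 3 of the cerebellum 16 of the 17 and 17 of the 18 WT calls were made in KO mice. Without KO 1 and KO 4 of the cortex 4 of the 5 were, since Pcdh7 lost its call (-1.17, adjusted p = 0.0707). The KO count between hippocampus and cortex was 8 with and without these 2 arrays, but 5 members were shared. Without them Cdh8, Pcdh7 and Pcdh10 were lost and Cdh7, Cdh12 and Cdh18 gained. Between cerebellum and cortex the KO count was 15 with and without these 2 arrays, and without them Pcdh11x was lost and Cdh11 gained. With no fold minimum 23 members passed between cerebellum and hippocampus (31.3% of all genes). Across the 54 members, which are not independent of each other, the WT and KO differences had Pearson's r of 0.901, 0.964 and 0.972, and over all genes r was 0.752, 0.936 and 0.949. Cdh18 was higher in cerebellum than in hippocampus by 3.17 in WT and 3.13 in KO mice, and Cdh7 by 3.07 and 3.37. Cdh9 was lower by 5.02 and 3.94, and Pcdh7 by 2.04 in WT and by 0.97 in KO mice, where it was under 2-fold. The other WT calls not made in KO mice were Cdh6, Cdh10 and Pcdh11x against hippocampus and Cdh1 and Cdh11 against cortex. Without KO 3 of the cerebellum Pcdh7 (-1.35), Pcdh11x (-1.3), Cdh10 (-1.21) and Cdh11 (-1.03) passed, and Cdh6 and Cdh1 did not. Calls made in KO mice alone were Cdh8 (1.24), Cdh22 (-1.25) and Pcdh10 (-1.24) between hippocampus and cortex, and their WT differences were 0.73, -0.72 and -0.67. Without KO 1 and KO 4 of the cortex Cdh22 kept its call (-1.05), while Cdh8 (0.81) was under 2-fold and Pcdh10 (-0.98) was under 2-fold with an adjusted p of 0.0792. Pcdh9, which had its lowest WT mean in cerebellum, had its highest KO mean there. This KO mean was 11.61, against 11.33 in cortex and in hippocampus, and neither difference was called.

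**Figure D3:**
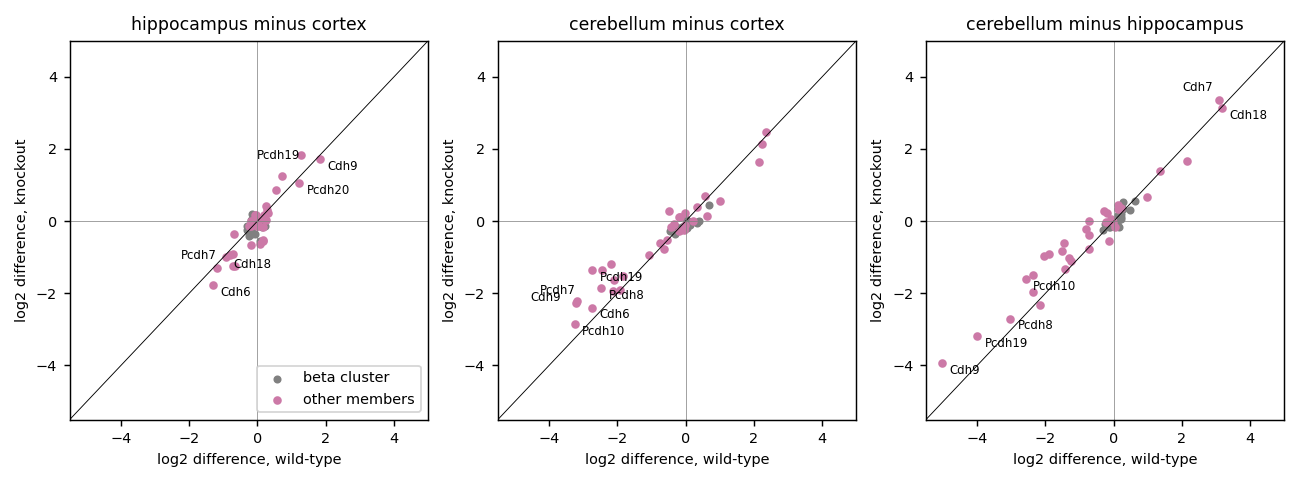
Each point is 1 of the 54 members (grey for the beta cluster), with its log2 difference between 2 regions in WT mice on the horizontal axis and in KO mice on the vertical axis, for the 3 pairs of regions, and the line marks equal differences. Points lie along the line, with r of 0.901, 0.964 and 0.972, and Cdh9 is the farthest from 0 in the right panel.

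No member differed between KO and WT mice after adjustment over all genes. The count of members and of all genes at an adjusted p of 0.05 was 0 (0% called) in cortex, in hippocampus, in cerebellum, averaged over the regions and for the difference of the genotype effect between regions. The smallest adjusted p of a member was 0.539, 1, 0.435, 0.661 and 0.921 in these 5 comparisons. At an unadjusted p of 0.05 there were 6 members in cortex (11.1%, against 7.45% of all genes), 0 in hippocampus (against 2.11%), 11 in cerebellum (20.4%, against 9.5%), 7 for the average (13%, against 7.41%) and 7 for the difference between regions (13%, against 5.09%). Without KO 1 and KO 4 of the cortex the average gave 2 members (3.7%, against 5.39%), and without KO 3 of the cerebellum the difference between regions gave 3 (5.56%, against 3.88%). These are values without a call, and a p that misses the threshold does not show that levels were the same.

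In the cerebellum, 11 of the 54 members had an unadjusted p under 0.05, 10 with higher and 1 with lower values in KO mice. Of all 19572 genes 1860 had such a p, 1169 with higher values (5.97% of all genes) and 691 with lower values (3.53%). Cdh9 read 6.94, 7.58, 8.53 and 7.12 in KO cerebellum against 5.97, 6.4, 7.04 and 6.32 in WT, a difference of 1.11 (SE 0.26, n = 4 per group, unadjusted p = 0.000285, adjusted p = 0.435). The ranges overlapped by 1 array of each genotype, KO 1 and WT 3. Pcdh7 read 12.21, 12.17, 13.35 and 11.12 against 10.72, 11.14, 12.06 and 11.02, with a difference of 0.97 (adjusted p = 0.435). KO 3 was the highest array of its group for both genes, and WT 3 the highest of the WT group. Cdh13 differed by 0.82, Pcdh10 by 0.78 and Cdh10 by 0.66, each with an adjusted p of 0.435. Cdh15, the member with the lower values in KO, read 8.45, 8.59, 7.76 and 8.81 against 8.64 to 8.97, a difference of -0.43. These differences share the WT cerebellum arrays with the regional comparisons above. For Cdh9 they stand beside -3.18 against cortex and for Cdh15 beside 2.14.

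These values were smaller without KO 3 of the cerebellum. The difference then was 0.78 for Cdh9, 0.6 for Pcdh7, 0.52 for Cdh13, 0.39 for Pcdh10, 0.35 for Cdh10 and -0.22 for Cdh15. The count at an unadjusted p of 0.05 went from 11 members to 3, Cdh9, Pcdh7 and Pcdhb4 (5.56%, against 3.52% of all genes), and no adjusted p was under 0.999. In this array the mean over 15 brainstem and spinal cord genes was 9.67, where the other 7 cerebellum arrays lay between 7.63 and 8.07, and 10 of the 15 genes were highest there. Oligodendrocyte genes read 13.31 against 11.41 to 11.97, microglial genes 9.56 against 8.56 to 8.87 and neocortical genes 10.05 against 8.71 to 9.12. Some markers were also higher in the other KO arrays. Microglial genes read 8.87, 8.74 and 8.75 in KO 1, KO 2 and KO 4, against 8.56 to 8.71 in WT cerebellum. Striatal genes read 10.34, 10.42, 10.59 and 10.17 in KO 1 to KO 4, against 9.6, 9.8, 10.29 and 9.68 in WT. Leaving out KO 3 therefore did not level these markers between genotypes. KO 3 was the highest of the 4 KO arrays for 11 of the 13 members lower in WT cerebellum, and WT 3 the highest of the 4 WT arrays for 11 of the 13. WT 3 had 8.07 over the brainstem genes and 10.29 over the striatal genes, each the highest of the 4 WT arrays. It had 9.08 over the neocortical genes, within the range of the other WT arrays. The part of these markers in the member values was not tested.

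**Figure D4:**
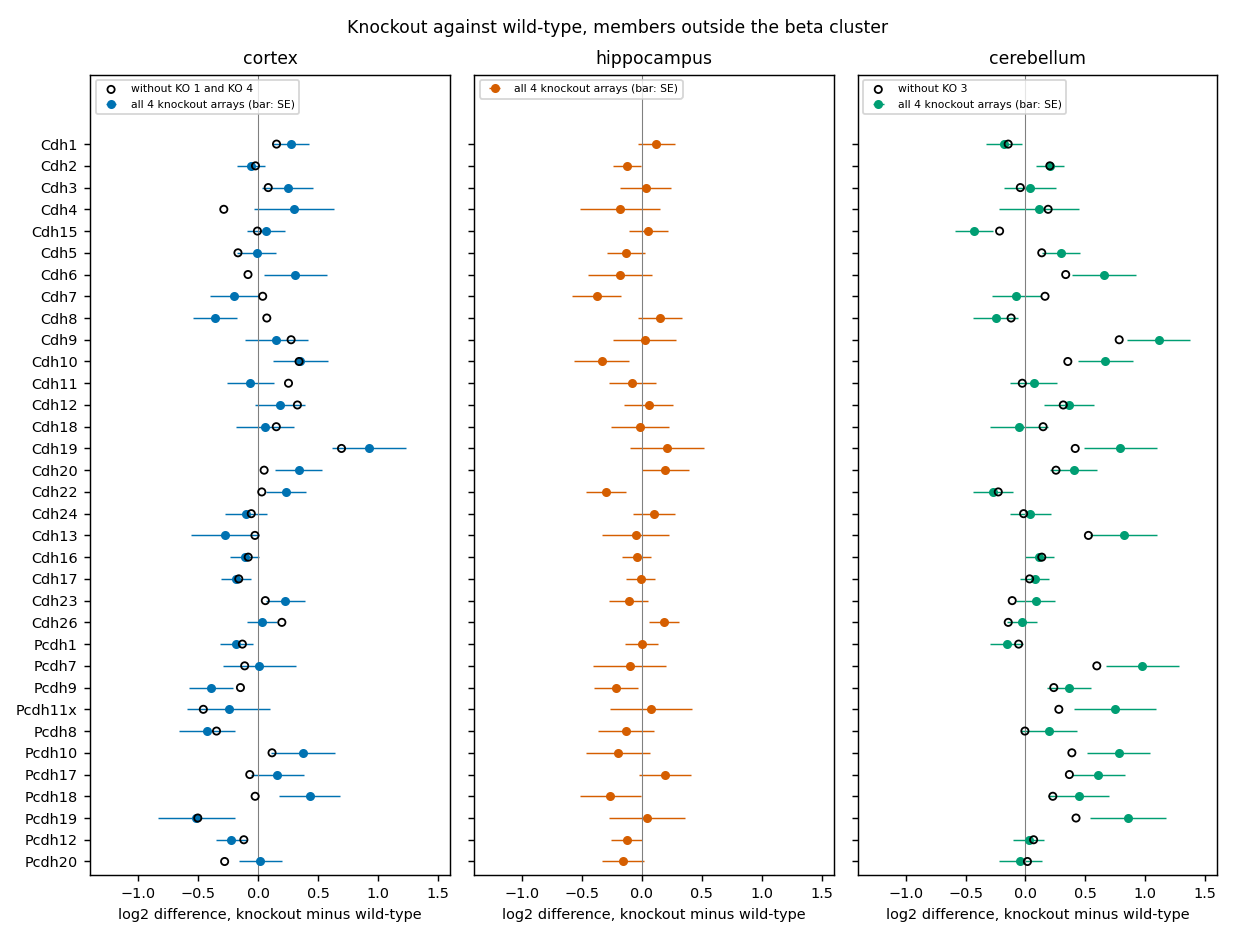
Rows are the 34 members outside the beta cluster and panels the 3 regions. Filled points give the log2 difference of KO and WT mice with its standard error (4 arrays per group), and open circles give it without KO 1 and KO 4 in cortex and without KO 3 in cerebellum. Cdh9 stands at 1.11 in cerebellum and 0.78 without KO 3, and Cdh19 at 0.93 in cortex and 0.69 without KO 1 and KO 4.

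In the cortex, Cdh19, a type II cadherin known from Schwann cell precursors and glia, had the smallest p. It read 9.21, 8.68, 8.5 and 8.91 in KO cortex against 8.08, 8.18, 7.67 and 7.66 in WT, with no overlap and a difference of 0.93 (1.9-fold, SE 0.31, unadjusted p = 0.00591, adjusted p = 0.539). The 2 highest values came from KO 1 and KO 4, the cortex arrays set apart by olfactory bulb genes. Without them the cortex difference was 0.69, and its unadjusted p was no longer under 0.05. Groups without overlap were found for 2 members in cortex, Cdh19 and Cdh10, where 3.68% of all genes had them, and for 2 in cerebellum, Cdh20 and Pcdh9, against 3.5%. In cerebellum Cdh19 read 7.76, 7.82, 9.19 and 7.47 in KO mice and 6.82 to 7.57 in WT, and averaged over the regions it was higher by 0.64 (SE 0.18, unadjusted p = 0.0014, adjusted p = 0.661). The average was 0.52 without KO 3 of the cerebellum and 0.56 without KO 1 and KO 4 of the cortex. Oligodendrocyte and precursor genes, measured by 8 markers, lay at 11.34 to 12.14 in KO and 11.08 to 12.44 in WT cortex.

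Pcdh9 had lower values in KO cortex, with 10.78, 11.56, 11.58 and 11.39 in KO against 11.84, 12.02, 11.15 and 11.87 in WT, a difference of -0.39 (adjusted p = 0.651). The lowest array was KO 1, and without KO 1 and KO 4 the difference was -0.15. In cerebellum Pcdh9 was higher in KO by 0.36 with no overlap between genotypes, and by 0.24 without KO 3, which read 11.99 against 11.46 to 11.5 in the other KO arrays. The difference of its genotype effect between regions had an unadjusted p of 0.0194 and an adjusted p of 0.921. Cdh9, Cdh10, Cdh13 and Pcdh19 were the other members of smallest p in that comparison, with unadjusted p from 0.0136 to 0.0251 and the same adjusted p.

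**Figure D5:**
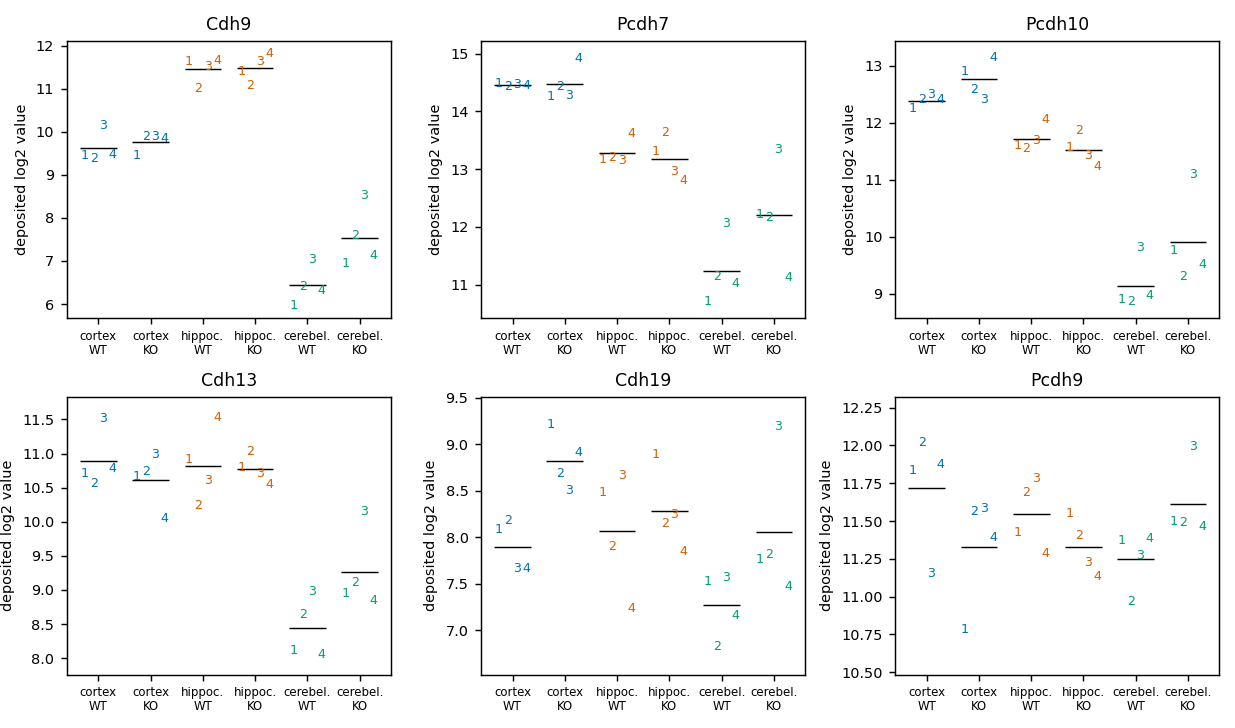
Deposited log2 values of 6 members in the 6 groups, with each array drawn as its animal number within the genotype and the group mean as a line. KO 3 of the cerebellum is the highest of the 4 KO arrays in all 6 panels, and for Cdh19 the KO and WT cortex arrays do not overlap.

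In the beta cluster no gene was called for genotype. In all, 17 of 20 genes had a higher mean in KO than in WT cortex, with a median of 0.16 (-0.01 over all genes), and quantile normalization also gave 17. In hippocampus 16 of the 20 had a higher mean in KO (median 0.07, 14 genes with quantile normalization), in cerebellum 11 (median 0.03) and averaged over the regions 18 (median 0.08). Pcdhb16 read 11.12, 9.94, 10.07 and 10.57 in KO against 9.91, 10.24, 9.98 and 9.73 in WT, a difference of 0.46 (adjusted p = 0.628), and Pcdhb6 read 8.87, 7.96, 7.8 and 8.49 against 7.87, 7.7, 7.76 and 8.13, a difference of 0.42 (adjusted p = 0.591). In both genes KO 1 and KO 4 were the 2 highest cortex arrays, the arrays with 11.17 and 10.6 over the olfactory bulb genes. Pcdhb18 read 8.84, 8.44, 8.53 and 9.03 in KO cortex against 8.56, 8.32, 8.14 and 8.36 in WT, a difference of 0.37. It too was highest in KO 4 and KO 1, and without KO 4 the difference was 0.26. Without these 2 arrays 14 of the 20 had a higher mean in the average (median 0.02) and 11 of the 20 in cortex, with a median of 0.00, Pcdhb16 differed by 0.04 and Pcdhb6 by 0.02. The count of members at an unadjusted p of 0.05 in cortex went from 6 to 1, Pcdhb11 (1.85%, against 3.54% of all genes). Of the 15 olfactory bulb genes 14 were highest in KO 1 among the 8 cortex arrays, and their part in the beta cluster values was not tested.

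In the hippocampus 0 members had an unadjusted p under 0.05. The 5 of smallest p were Pcdhb3 (0.24), Cdh7 (-0.38), Cdh22 (-0.3), Cdh26 (0.18) and Cdh10 (-0.33), all with an adjusted p of 1. Without WT 4 the difference of Cdh22 was -0.14, and without KO 3 that of Cdh10 was -0.22. Over the 54 members the differences lay between -0.38 and 0.24 with a median of 0.01, and 0 members had groups without overlap (2.17% of all genes). Averaged over the regions, Cdh9 was higher by 0.43, Cdh20 by 0.31, Pcdh17 by 0.32 and Pcdhb6 by 0.25, each with an adjusted p of 0.661. Without KO 1 and KO 4 of the cortex the average of Pcdhb6 was 0.12. Without KO 3 of the cerebellum the average of Cdh9 was 0.32 and that of Pcdh17 0.24. For Cdh20 the lowest average with 1 array left out was 0.24, without WT 4 of the hippocampus.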

How the data were processed

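The members and gene lists were chosen with earlier results of these data known. The authors deposited 1 value per gene and array, made with RMA per the submitters' processing notes. The deposited values were taken as log2 from their range. For RMA's version and the build, nothing is stated in the sources used here. RMA compresses differences between dim probes. The labels name biotin and also Cy3, so the labelling is not settled. Values were used as deposited, with symbols from the platform annotation and neighbours and promoters from RefSeq (GRCm38.p6).

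With R 4.3.3 and its package limma 3.58.1, lmFit and eBayes were run (2-sided) over all 24 arrays and 19572 annotated rows, with 1 mean per group, and p-values were adjusted by Benjamini-Hochberg. Comparisons of regions, the averaged genotype effect and its difference between regions had a random block for the animal (duplicateCorrelation, statmod 1.5.0, consensus correlation 0.00646). Genotype comparisons within a region had no block. Deviations of arrays from the same labelled animal correlated at -0.191 to 0.297 between regions. The labels number the animals within a genotype, and that is where the pairing comes from. WT and KO animals of the same number are different animals (r -0.243 to 0.297). A region call needed an adjusted p of 0.05 and 2-fold, a genotype call the adjusted p. Errors are standard errors of the fit. The number of arrays limits the precision, and p-values measure the spread between these animals. Alternatives were another normalization, filter, prior, fold minimum or block, and each array left out. Scripts were tested on simulated data.

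Genes named with values were the 6 members of widest difference in each direction among those called in each WT pair of regions, the 5 of smallest p in each genotype comparison and a list of cadherins and protocadherins. Others (Pcdhb14, Pcdhb5, Pcdhb18 between regions, Pcdhb4, Pcdhb11) were chosen after their values were seen.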

Additional observations from a re-analysis of the deposited data

Results flagged for a closer look

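Within the 6 groups, 16 of 198 sets of 4 arrays examined, over 33 named members, held 1 array far from the other 3, measured as its gap to the nearest array divided by the whole range. Independent, normally distributed values would give about 1 in 20. These members share their arrays and some were named for their values, and the rate over all genes was not computed, so no excess can be read from the count. KO 3 of the cerebellum was that array 4 times. It read 8.23 for Cdh23, with 7.44 to 7.47 in the others (ratio 0.963), 9.55 for Pcdh11x against 7.56 to 7.84 (0.858), 11.99 for Pcdh9 against 11.46 to 11.5 (0.934) and 12 for Cdh7 against 12.89 to 13.07 (0.833).

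WT 3 of the cortex was low for Cdh11 with 11.53 (0.973) and for Cdh7 with 10.11 (0.886), and high for Cdh9 with 10.14 (0.877). KO 1 of the cortex was low for Cdh9 with 9.45 (0.888). WT 4 of the hippocampus was low for Cdh12 with 11.21 (0.841) and for Pcdh20 with 8.92 (0.993), and high for Pcdh18 with 8.23 (0.924) and Pcdh7 with 13.62 (0.896). In KO hippocampus, KO 2 was high for Cdh1 with 9.25 (0.877) and KO 1 for Cdh20 with 10.77 (0.893). In WT cerebellum, WT 2 was low for Cdh5 with 8.95 (0.896) and WT 3 high for Pcdh10 with 9.82 (0.891).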

How the results depend on the processing

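Counts of members called stayed within 1.5 times of the reported value under quantile normalization, omission of the rows of lowest mean (14679 rows and 51 members kept), a cap at 16, a prior with an intensity trend, fits to the compared regions alone and omission of cerebellum KO 3 or of cortex KO 1 and KO 4, though in KO mice the members called changed in part without these arrays. Without a fold minimum, 10 members passed between hippocampus and cortex and 26 between cerebellum and cortex in WT, and 23 between cerebellum and hippocampus in KO mice. With a 1.5-fold minimum the first count was also 10. At an unadjusted p of 0.05 the genotype counts were 6 in cortex, 11 in cerebellum, 7 averaged and 7 for the difference between regions. Leaving out each array in turn gave 4 to 6, 15 to 17 and 18 to 19 members in WT, 7 to 11, 14 to 17 and 13 to 17 in KO mice and 0 for genotype. With the animal number as a replicate block, genotype comparisons also gave 0 members, and without the block the regional counts stayed at 5, 17 and 18 in WT and 8, 15 and 14 in KO mice. The block changed no other call. Averaging several rows of a symbol was not run because each member had 1 row. The scanner files were not used here, so signal over background could not be judged.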
